A study of Mus musculus with 9 samples.

Results

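The genes described here encode the transforming growth factor beta (TGF-beta) ligands, their receptors and the latent TGF-beta binding proteins. They were chosen by name: the ligand genes Tgfb1, Tgfb2 and Tgfb3, the receptor genes Tgfbr1, Tgfbr2 and Tgfbr3, and the binding protein genes Ltbp1, Ltbp2, Ltbp3 and Ltbp4. These are 10 of the 43548 gene identifiers measured, and all 10 passed the filter on low values that left 18714 genes for testing.

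TGF-beta ligands are secreted in a latent form, held by their own propeptide, and a latent-binding protein ties this complex to the extracellular matrix until it is activated. The freed ligand binds TGFBR2, which phosphorylates TGFBR1, and the signal then runs through the Smad proteins to the nucleus, while TGFBR3 (betaglycan) presents ligand, TGFB2 above all. In the developing skull the pathway is known for its part in the growth of the vault bones, in the patency of sutures and in cartilage formation.

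The libraries were made from mouse embryos at E14.5, in 3 groups of 3 libraries: control cranial vault, MCAGF8 cranial vault and, from control embryos, cranial base. MCAGF8 embryos (Msx2Cre; CAGFgf8) carried a Cre that is active in the ectoderm of the head but not in the mesenchyme beneath it, and an allele at the ROSA26 locus in which Cre removes a stop cassette, so that a CAG promoter drives the Fgf8b cDNA. The labels name the controls wildtype, whereas in the cross described, Cre mice were bred to mice homozygous for the allele, so that the controls should carry it with its stop in place. The strain was mixed, on an outbred background. The skin was peeled from the vault, and the base was the cartilage under the brain, taken from control embryos. RNA of 3 of the 9 samples of a group was pooled for each library. Vault and base of the control group were both dissected from the control embryos, but the embryos behind each pool are not listed and the fit took pools as independent, and p-values measure the spread between pools. Levels are FPKM, which scale reads by transcript length and library size, and the depth of the libraries is unknown.

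Fgf8 did not separate the vault groups, at 13.5, 8.25 and 3.01 FPKM in the control vault and 19.5, 9.43 and 13.03 FPKM in the MCAGF8 vault (log2 difference of 0.83, SE 0.57, limma adjusted p = 0.969). The paper likewise found no difference in Fgf8 and relates it to the skin, where the allele was active, having been taken off. It reports higher Dusp6 and Spry4, which respond to FGF signaling, in the MCAGF8 mesenchyme. The second control base library stood apart, with a summed level of 8 cartilage markers of 6063 FPKM against 478 and 776 FPKM in the other base libraries. Those other base libraries were below the control vault (1005 to 1346 FPKM) in this list, although the base is labelled as the cartilaginous tissue, and base markers of skeletal muscle reached 1434 to 10120 FPKM. Member results and counts of passing genes that rest on the second base library are therefore given with and without it. Differences of single pathway genes are given only with it.

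Ltbp2 was the only member that differed between the MCAGF8 and the control vault by the threshold used here, an unadjusted p under 0.05 together with a Benjamini-Hochberg adjusted p under 0.1 over all genes tested. Its mean level was 3.04 times as high in the MCAGF8 vault. Against the control base, Ltbp2 and the receptor genes Tgfbr2 and Tgfbr3 were higher in the MCAGF8 vault, at 2.43, 2.00 and 1.99 times the base mean. No member differed between the control base and the control vault by this threshold.

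**Figure D1:**
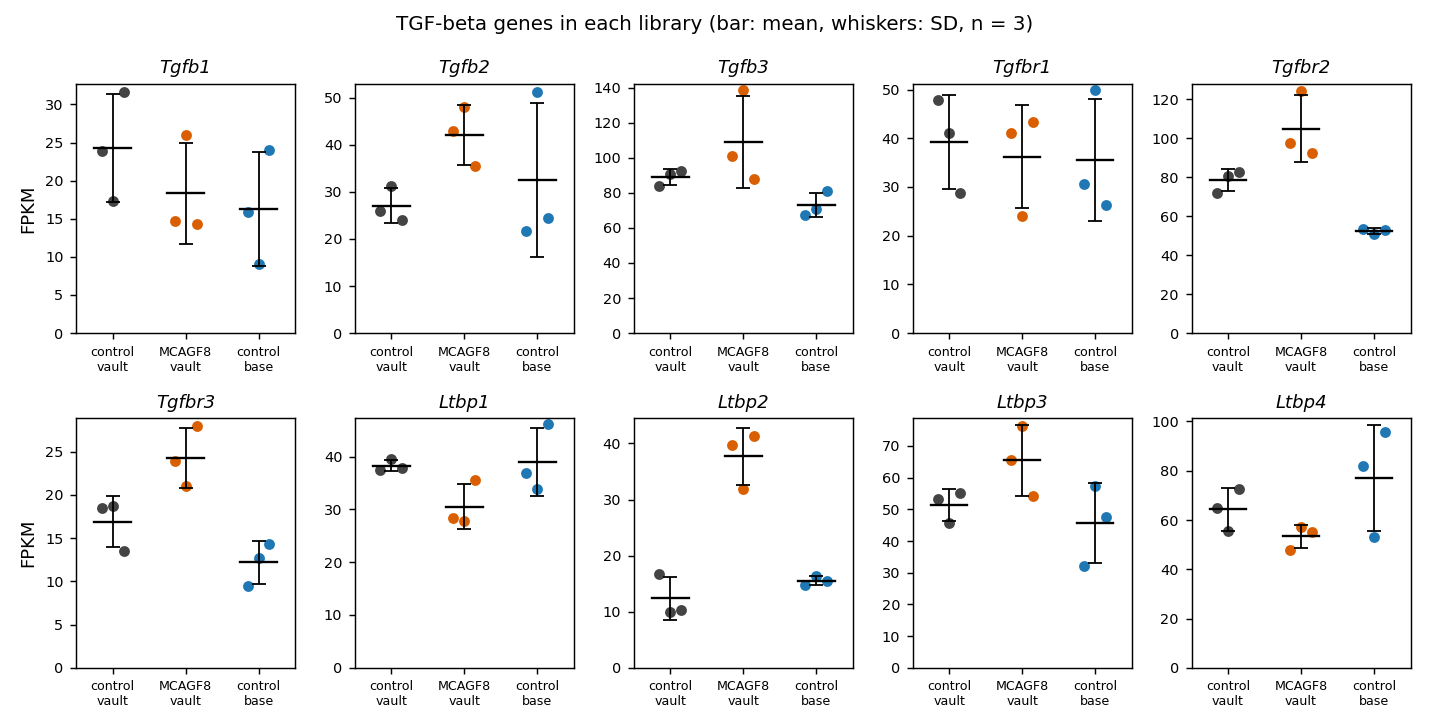
FPKM of the 10 members in each of the 9 libraries. The y axis is FPKM, points are libraries (pools) of the 3 groups, horizontal bars are group means and whiskers the SD (n = 3); the 3 Ltbp2 points of the MCAGF8 vault (31.9 to 41.4 FPKM) lie above all 6 control points (10.02 to 16.8 FPKM), while the Tgfb1 and Tgfbr1 groups overlap.

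Among the ligand genes, Tgfb3 was the most abundant in every library. Tgfb3 (ENSMUSG00000021253, GRCm38 chr12:86056745-86079041, minus strand), which is known from its requirement in palate fusion, stood at 83.9, 91.0 and 92.4 FPKM in the control vault, 100.9, 138.8 and 87.9 FPKM in the MCAGF8 vault and 67.4, 71.0 and 81.0 FPKM in the control base. The third MCAGF8 library lay within the range of the control vault, and all 3 lay above the base. Tgfb3 differed by 0.27 on the log2(FPKM + 1) scale between the vault groups (SE 0.19, limma adjusted p = 0.969) and by 0.55 between the MCAGF8 vault and the base (SE 0.19, 95% interval 0.12 to 0.98, adjusted p = 0.153). The latter fell under the threshold after quantile normalization (adjusted p = 0.0434) and after rescaling the libraries to 1 sum (adjusted p = 0.0768).

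Tgfb2 (ENSMUSG00000039239, chr1:186622792-186705989, minus strand) encodes the ligand that depends most on TGFBR3 for receptor binding. Its level was 25.9, 31.2 and 24.1 FPKM in the control vault and 42.9, 48.0 and 35.5 FPKM in the MCAGF8 vault, so that the vault groups did not overlap. The control base held 21.8, 51.3 and 24.4 FPKM, and the highest value of all 9 libraries was that of the second base library. The ratio of MCAGF8 to control vault means was 1.56, and the log2 difference of 0.62 did not pass the test (SE 0.30, 95% interval -0.06 to 1.29, unadjusted p = 0.0680, adjusted p = 0.858). Between the MCAGF8 vault and the base the difference was 0.46 (SE 0.30, adjusted p = 0.443), and it was 0.83 without the second base library, which passed the test (adjusted p = 0.0237).

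The window upstream of Tgfb2 is shown since it is the ligand gene whose vault groups did not overlap. It comes from the RefSeq promoter table (GRCm38.p6, chr1:186705990-186706239, minus strand, 250 bases, written 5′ to 3′) and ends at the base before the annotated gene start.
Tgfb2 upstream window: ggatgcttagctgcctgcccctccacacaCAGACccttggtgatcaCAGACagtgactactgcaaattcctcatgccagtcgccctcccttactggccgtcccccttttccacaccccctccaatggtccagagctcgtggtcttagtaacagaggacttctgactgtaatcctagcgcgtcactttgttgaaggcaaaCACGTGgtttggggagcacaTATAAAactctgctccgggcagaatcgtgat
Capitals mark matches to the 7 motifs searched on both strands, which were the SMAD box CAGAC, the Sp1 box GGGCGG, the AP-1 site TGANTCA, the E-box CACGTG, the cyclic AMP response element TGACGTCA, the ETS site CCGGAAGT and the TATA box TATAAA. The window holds the letters of 2 SMAD boxes, 1 E-box and 1 TATA box. Of 32851 mouse promoter windows of this length, 42.2% hold a SMAD box, 6.02% this E-box and 12.4% this TATA box, so the SMAD box is a common match, and the letters alone do not show binding.

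Tgfb1 (ENSMUSG00000002603, chr7:25687002-25705077, plus strand), the ligand gene best known from blood and immune cells, had the lowest mean of the ligand genes in each group. It was at 23.9, 17.4 and 31.6 FPKM in the control vault, 14.7, 26.0 and 14.3 FPKM in the MCAGF8 vault and 15.9, 9.03 and 24.0 FPKM in the base. All 3 groups overlapped, and the MCAGF8 minus control vault difference was -0.40 on the log2 scale (SE 0.37, 95% interval -1.23 to 0.43, adjusted p = 0.969).

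The summed level of Tgfbr1, Tgfbr2 and Tgfbr3 was 138.3, 140.2 and 125.3 FPKM in the control vault, 162.7, 169.5 and 163.7 FPKM in the MCAGF8 vault and 93.6, 113.5 and 93.4 FPKM in the control base. The 3 groups did not overlap in this sum, for which no test was made.

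Tgfbr2 (ENSMUSG00000032440, chr9:116084293-116175360, minus strand), the receptor kinase that binds ligand first, had the largest part in that sum in every library. It was at 72.0, 80.4 and 83.0 FPKM in the control vault, 97.7, 124.4 and 92.4 FPKM in the MCAGF8 vault and 53.6, 50.9 and 52.8 FPKM in the base. The groups were ordered base, control vault, MCAGF8 vault with no overlap, and the base pools agreed within an SD of 1.41 FPKM. Tgfbr2 rose by 0.97 on the log2 scale in the MCAGF8 vault against the base (SE 0.16, 95% interval 0.61 to 1.34, adjusted p = 0.0118), and this call held under all 19 alternatives (adjusted p from 0.00350 to 0.0669). The alternative that used the unadjusted p alone could not lose a call. Against the control vault the difference was 0.40 (SE 0.16, unadjusted p = 0.0348, adjusted p = 0.692), and the base minus control vault difference was -0.57 (SE 0.16, unadjusted p = 0.00650, adjusted p = 0.142), which passed after quantile normalization (adjusted p = 0.0498). The values of the control vault thus lay between those of the other groups, and neither step from it passed the test as made here.

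The window upstream of Tgfbr2 is shown as that of the receptor gene with the most separate groups (RefSeq, GRCm38.p6, chr9:116175364-116175613, minus strand, 250 bases, 5′ to 3′, motif matches in capitals).
Tgfbr2 upstream window: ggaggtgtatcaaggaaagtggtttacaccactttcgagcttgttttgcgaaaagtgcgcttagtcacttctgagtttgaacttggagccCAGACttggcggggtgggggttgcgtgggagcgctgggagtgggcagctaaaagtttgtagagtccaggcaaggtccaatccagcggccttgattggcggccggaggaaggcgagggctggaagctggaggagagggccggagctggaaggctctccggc
It holds 1 SMAD box and no match to the other motifs searched.

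Tgfbr3 (ENSMUSG00000029287, chr5:107106570-107289629, minus strand), the gene of the co-receptor betaglycan, was the least abundant receptor gene. Its level was 18.4, 18.7 and 13.5 FPKM in the control vault, 23.9, 20.96 and 27.9 FPKM in the MCAGF8 vault and 9.48, 12.7 and 14.3 FPKM in the base. The MCAGF8 libraries lay above all 6 control libraries, and the control groups overlapped each other. Tgfbr3 rose by 0.95 on the log2 scale against the base (SE 0.22, 95% interval 0.46 to 1.44, adjusted p = 0.0395). Among the alternatives in which that call was lost were the fits without the first MCAGF8 library (adjusted p = 0.148), without the third (adjusted p = 0.143) and with only the 6 libraries compared in the fit (adjusted p = 0.105). Of all genes 587, 842 and 904 passed in these fits, in the same order, against 1571 in the main fit. Against the control vault the difference of 0.50 did not pass (SE 0.22, unadjusted p = 0.0457, adjusted p = 0.768).

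Tgfbr1 (ENSMUSG00000007613, chr4:47353222-47414931, plus strand), the gene of the kinase that phosphorylates the Smads, did not follow the other receptor genes. It was at 47.9, 41.2 and 28.8 FPKM in the control vault, 41.1, 24.1 and 43.4 FPKM in the MCAGF8 vault and 30.5, 49.9 and 26.3 FPKM in the base. The groups overlapped throughout, with log2 differences of -0.13 between the vault groups (SE 0.31, 95% interval -0.83 to 0.57, adjusted p = 0.984), 0.03 between the MCAGF8 vault and the base and -0.16 between base and control vault. The sign of each of these 3 differences turned under at least 1 alternative, so no direction is given for Tgfbr1.

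Ltbp2 (ENSMUSG00000002020, chr12:84783212-84876532, minus strand) encodes the family member that binds fibrillin microfibrils but is known not to bind latent TGF-beta. It stood at 16.8, 10.02 and 10.4 FPKM in the control vault, where its mean was the lowest of the members, at 39.8, 31.9 and 41.4 FPKM in the MCAGF8 vault and at 14.7, 16.3 and 15.4 FPKM in the base. Every MCAGF8 library exceeded every control library, and the control groups overlapped. Ltbp2 rose by 1.56 on the log2 scale against the control vault (SE 0.22, 95% interval 1.06 to 2.05, adjusted p = 0.0374), and 18 of the 18714 genes had a lower p in that comparison. Against the base it rose by 1.22 (SE 0.22, 95% interval 0.73 to 1.72), and that call held under all 19 alternatives (adjusted p from 0.0102 to 0.0832), though the unadjusted p alone could not lose it.

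The call against the control vault was less stable, although the size of the difference was not. Over the 19 alternatives the difference ranged from 1.44 to 1.78 and the adjusted p from 0.0214 to 0.215. Among the alternatives in which the call was lost were the fits without the first, the second or the third MCAGF8 library (adjusted p = 0.215, 0.110 and 0.122), without the third control vault library (adjusted p = 0.162) and without moderated variances (adjusted p = 0.194). Of all genes 13, 15, 38, 11 and 0 passed in these fits, in the same order, against 113 in the main fit. The annotation places an antisense gene, D030025P21Rik, over exons of Ltbp2, and whether counting used strand is not stated, but that gene was itself at a mean of 0.406 FPKM.

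The window upstream of Ltbp2 is shown because Ltbp2 is the member that passed the test against both control tissues (RefSeq, GRCm38.p6, chr12:84876533-84876741, minus strand, 209 bases upstream of the annotated gene start, 5′ to 3′, motif matches in capitals).
Ltbp2 upstream window: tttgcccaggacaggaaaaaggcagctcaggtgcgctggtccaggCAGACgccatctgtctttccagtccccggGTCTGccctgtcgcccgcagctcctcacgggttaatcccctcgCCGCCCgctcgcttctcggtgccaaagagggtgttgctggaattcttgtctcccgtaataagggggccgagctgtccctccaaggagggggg
It holds 2 SMAD boxes, 1 on each strand, and 1 Sp1 box, read here on the reverse strand as CCGCCC. Of all promoter windows trimmed to this length, 37.1% hold a SMAD box and 26.5% an Sp1 box. Over the members, 8 of 10 had a usable window, 12 windows in all. Over the full 250 bases 7 of the 12 held a SMAD box, beside 42.2% of all windows at that length. Windows of Tgfb3 and Tgfbr3 were not analysed here.

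Ltbp1 (ENSMUSG00000001870, chr17:75005568-75392512, plus strand), which encodes the best-known carrier of latent TGF-beta, lay lower in the MCAGF8 vault without passing the test. It was at 37.5, 39.4 and 37.9 FPKM in the control vault and at 28.3, 27.7 and 35.5 FPKM in the MCAGF8 vault. The vault groups did not overlap, but the third MCAGF8 library came close to the lowest control (log2 difference of -0.33, SE 0.18, 95% interval -0.72 to 0.07, adjusted p = 0.927). The base, at 36.9, 33.8 and 46.2 FPKM, spanned the control vault.

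Ltbp3 and Ltbp4, which encode the remaining family members, overlapped between groups in every comparison. Ltbp3 (ENSMUSG00000024940, chr19:5740904-5758532, plus strand), known from skeletal phenotypes of its loss, was at 53.3, 45.6 and 55.0 FPKM in the control vault, 65.6, 76.4 and 54.3 FPKM in the MCAGF8 vault and 32.1, 57.2 and 47.6 FPKM in the base. Ltbp4 (ENSMUSG00000040488, chr7:27305136-27337692, minus strand), known from elastic fibre assembly, was at 64.8, 55.5 and 72.7 FPKM in the control vault, 47.9, 57.0 and 55.0 FPKM in the MCAGF8 vault and 82.1, 53.3 and 95.7 FPKM in the base. Between the vault groups Ltbp3 differed by 0.34 and Ltbp4 by -0.26 on the log2 scale (SE 0.23 for both, adjusted p = 0.969 for both). Against the base the differences were 0.54 and -0.49, neither of which passed (adjusted p = 0.241 and 0.276), and without the second base library they were 0.72 and -0.73 and both passed (adjusted p = 0.0572 and 0.0267).

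**Figure D2:**
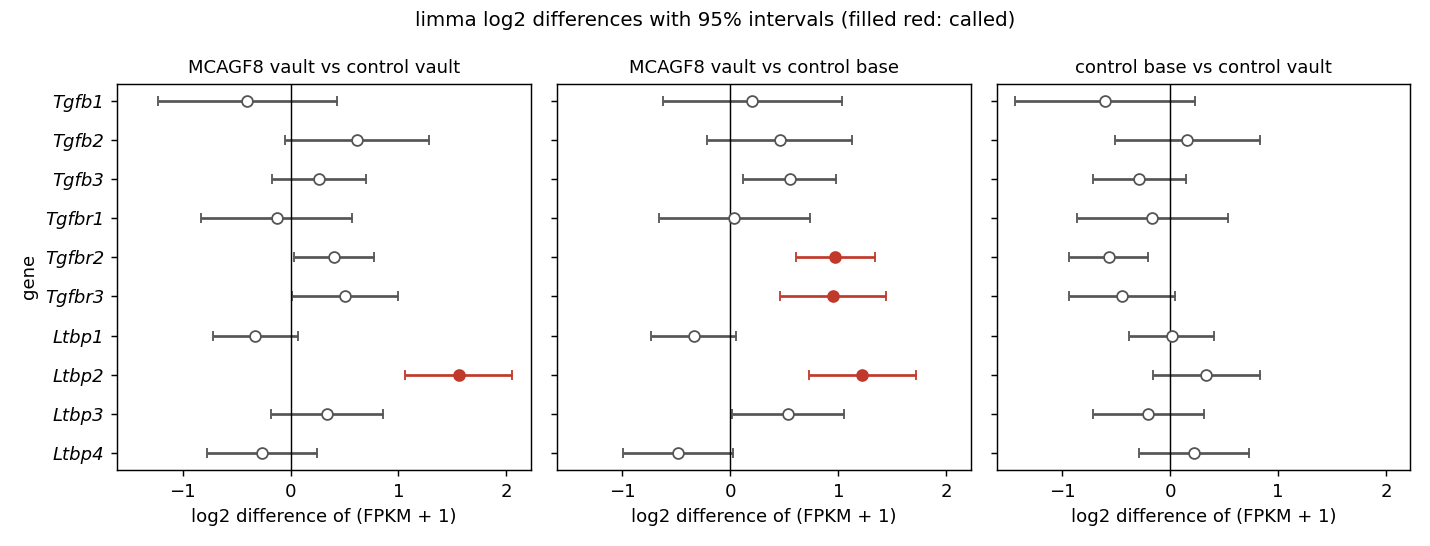
Log2 difference of (FPKM + 1) for the 10 members in the 3 comparisons, with 95% intervals from the limma fit; red points passed the test. In the vault comparison Ltbp2 alone, at 1.56, is red, in the comparison with the base Tgfbr2, Tgfbr3 and Ltbp2 are, and none is between the control tissues.

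As a set of 10, the members are described by counts beside those over all genes. Between the vault groups 1 of 10 passed the test, where 0.604% of all 18714 genes did, and the members' median log2 difference was 0.30 against -0.01 over all genes. In 4 members (Tgfb2, Tgfbr2, Tgfbr3 and Ltbp2) the MCAGF8 vault lay above the control vault without overlap and in 1 (Ltbp1) below it, against 9.9% and 9.35% of all genes. At an unadjusted p under 0.05 alone there were 3 members, beside 6.34% of all genes. Against the base 3 of 10 passed, all higher, where 8.39% of all genes did in either direction (2.98% higher and 5.41% lower), and the median was 0.50 against -0.07 over all genes. At an unadjusted p under 0.05 alone there were 5, beside 19.6%, and 4 members (Tgfb3, Tgfbr2, Tgfbr3 and Ltbp2) lay above the base without overlap, beside 8.91%. Without the second base library 6 of 10 passed, 5 higher and 1 lower, where 4561 of 18624 genes did, 1179 higher and 3382 lower. Between the base and the control vault 0 of 10 passed by limma, where 3.06% of all genes passed (1.85% higher and 1.21% lower), and 1 had an unadjusted p under 0.05, as did 12.8% of all genes. Of the 10 members 2 (Tgfb3 and Tgfbr2) lay lower in the base without overlap and 0 higher, beside 6.69% and 8.86% of all genes, together 15.5%. The median was -0.18 against 0.07 over all genes. The 3 comparisons share libraries, and each MCAGF8 library enters 2 of them, so they are not separate evidence.

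The order of the members' mean levels differed between the groups. In the control vault Tgfb3 and then Tgfbr2 led, with ranges that did not overlap, followed by Ltbp4, Ltbp3, Tgfbr1, Ltbp1, Tgfb2, Tgfb1, Tgfbr3 and Ltbp2. Of the later neighbours there, only Ltbp4 with Ltbp3 and Ltbp1 with Tgfb2 had separate ranges, and all others overlapped. In the MCAGF8 vault Tgfb3 and Tgfbr2 led again, but their ranges overlapped, and Ltbp2 moved from the tenth to the sixth place, where its range overlapped those of Tgfb2 and Tgfbr1. In the base Ltbp4 and Tgfb3 led with overlapping ranges, and Tgfbr3 was lowest.

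The make-up of the binding protein mRNA is given as shares, for which no test was made. Ltbp2 made up 9.73%, 6.65% and 5.89% of the summed FPKM of the 4 genes in the control vault, 21.9%, 16.5% and 22.2% in the MCAGF8 vault and 8.88%, 10.2% and 7.53% in the base. Ltbp4 made up 38.6% ± 2.39 (SD, n = 3) in the control vault and 28.5% ± 1.82 in the MCAGF8 vault, and Ltbp1 23.2% ± 2.63 and 16.4% ± 2.44, each without overlap between the vault groups. The sum was 166.3 ± 13.7 FPKM in the control vault and 186.9 ± 5.80 FPKM in the MCAGF8 vault, without overlap. Ltbp3 made up 30.8% ± 0.485 and 34.95% ± 5.31, with overlap. The shares of a library add up, so they are not independent of each other.

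Among the ligands the share of Tgfb3 was 63.4% ± 1.52 in the control vault and 64.2% ± 0.854 in the MCAGF8 vault. Tgfb2 made up 19.4%, 22.4% and 16.3% in the control vault and 27.1%, 22.6% and 25.7% in the MCAGF8 vault, and Tgfb1 17.9%, 12.5% and 21.3% against 9.28%, 12.2% and 10.4%. Both pairs of groups were separate, by a narrow margin. In the second base library Tgfb2 reached 39.1% and Tgfb1 6.88%, away from the other base libraries at 20.7% and 18.9% for Tgfb2.

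**Figure D3:**
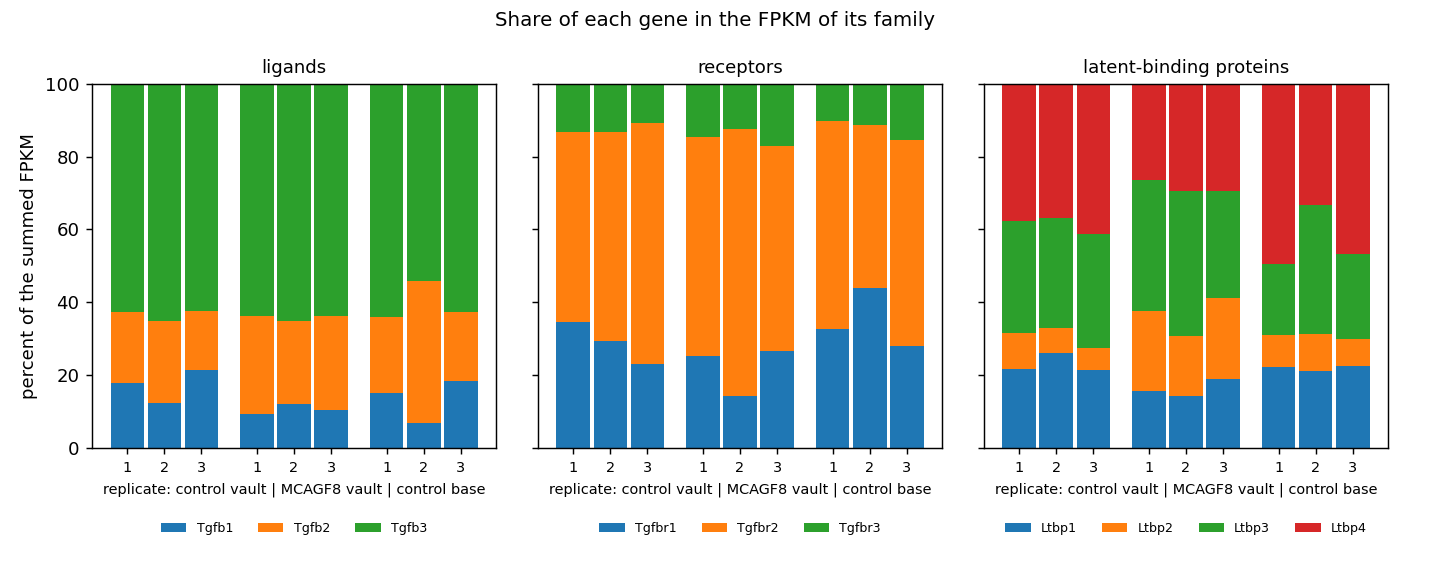
Percent of the summed FPKM of each family contributed by each gene, per library, for ligands, receptors and latent-binding proteins. The y axis is percent and bars are the 3 libraries of each group; the Ltbp2 segment takes 16.5% to 22.2% in the MCAGF8 vault and 5.89% to 10.2% in the control tissues.

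Pools of whole tissue do not tell a change in the number of cells of a type from a change in RNA per cell, and markers of several cell types moved with the groups. In the MCAGF8 vault the summed level of 8 epidermis markers was 369 to 793 FPKM against 17.6 to 92.0 FPKM in the control vault, with 6 of 8 markers higher without overlap. Dermis markers summed to 2779 to 2857 against 2069 to 2583 FPKM and endothelium markers to 506 to 618 against 420.2 to 494 FPKM, with 3 and 2 of 8 higher without overlap. The largest rise in the dermis list was that of Crabp1, from a mean of 403.0 to 865.6 FPKM. The means of Dcn (727.4 to 599.0 FPKM), Dpt and Dpp4 in that list were lower in the MCAGF8 vault. Bone markers were at 140.0 to 284 against 1348 to 3282 FPKM with 6 of 8 lower, skeletal muscle markers at 16.4 to 157 against 748 to 4766 FPKM with 8 of 8 lower, and tendon markers at 2646 to 3209 against 3645 to 4725 FPKM with 4 of 8 lower. Most of the tendon sum was Col1a1, at 2102 to 2666 against 2664 to 3913 FPKM, with overlap. Cartilage markers summed to 1365 to 2703 FPKM in the MCAGF8 vault, above the control vault, with 3 of 8 higher. The sums of erythroid, macrophage, meninges and neuron markers overlapped between the vault groups. Of their single markers 1 of 8 erythroid and 2 of 7 neuron markers were lower in the MCAGF8 vault without overlap, and 1 of 8 meninges markers was higher. No measured marker of any of the 11 lists was at 0 in any library. The part of these cell types in the values of Ltbp2 and of the other members was not tested.

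Against the base the dermis sum was higher in the MCAGF8 vault, at 2779 to 2857 against 934 to 1784 FPKM, with 5 of 8 markers above all base libraries, and so was the endothelium sum, at 506 to 618 against 374 to 424 FPKM, with 6 of 8. Tendon markers summed to 832 to 1265 FPKM in the base, with 4 of 8 lower there than in the MCAGF8 vault and 1 higher. Neuron markers were at 307 to 1018 FPKM in the base against 45.9 to 81.2 FPKM, with all 7 measured markers higher in the base, and all 8 muscle markers were higher there too. Bone markers were at 487 to 1356 FPKM in the base against 140.0 to 284 FPKM, with 5 of 8 higher in the base and 1 lower. Of the macrophage markers 4 of 8 and of the erythroid markers 3 of 8 were higher in the MCAGF8 vault without overlap, while the sums of both lists overlapped. These differences lie beside those of Tgfbr2, Tgfbr3 and Ltbp2 between the same groups, and their part in them was not tested.

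**Figure D4:**
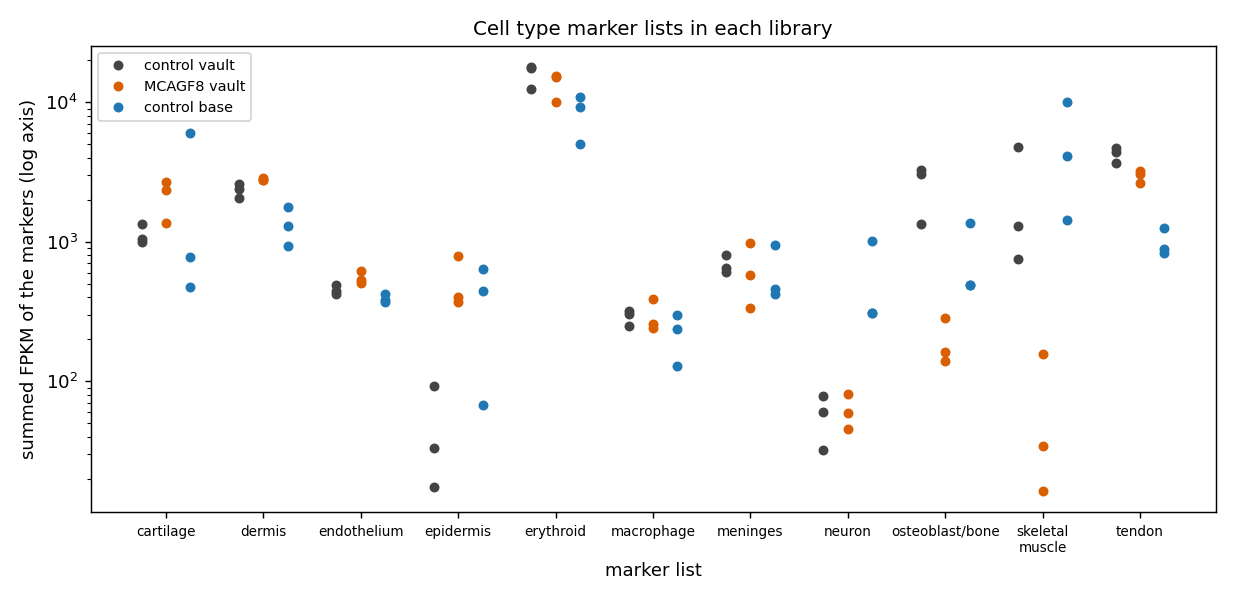
Summed FPKM of the marker genes of 11 cell types per library, on a log axis, with points for the libraries of the 3 groups. Bone and skeletal muscle sums of the MCAGF8 vault (140.0 to 284 and 16.4 to 157 FPKM) lie below every library of the control tissues, and the second base library stands apart in cartilage at 6063 FPKM.

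Other genes of the pathway were examined in 4 lists with 46 distinct genes, 2 of which (Smad7 and Skil) stand in a pair of lists. Between the vault groups 0 of 46 passed the test by limma, with 5 at an unadjusted p under 0.05, beside 0.604% and 6.34% of all genes, and the median log2 difference was 0.11. Without moderated variances 0 of 46 passed as well, but so did 0 of all 18714 genes, so that fit could not set the pathway genes apart. Without the second base library, which enters through the shared variance, 3 passed, 1 higher and 2 lower, where 273 of 18624 genes did. In 8 of the 46 genes the MCAGF8 vault was higher without overlap and in 4 lower, beside 9.9% and 9.35% of all genes, so that the lower ones were no more frequent than over all genes. By the naming rule, the lowest p of each list are described here.

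Lrrc32, which encodes the cell-surface carrier of latent TGF-beta known as GARP, was at 6.93, 8.34 and 7.34 FPKM in the control vault and 15.4, 18.4 and 12.9 FPKM in the MCAGF8 vault. The groups did not overlap, and the difference of 0.94 did not pass the test over all genes (SE 0.27, adjusted p = 0.332). Fbn2, a fibrillin of the microfibrils to which latent-binding proteins attach, differed by 0.72 (adjusted p = 0.818).

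Of the accessory receptors, Bambi, a decoy without a kinase domain, was at 19.1, 17.8 and 25.3 FPKM in the control vault and 9.03, 12.3 and 9.33 FPKM in the MCAGF8 vault (log2 difference of -0.95, adjusted p = 0.410). Eng (endoglin), a co-receptor of endothelium, differed by 0.52 (adjusted p = 0.645). The vault groups did not overlap in either gene. Among the Smads and their regulators the lowest p were those of Smad3 and of the corepressor gene Tgif1, at 0.33 and 0.26 (adjusted p = 0.969 for both).

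Of 19 genes known to respond to TGF-beta, 0 passed in the vault comparison and their median was 0.03. Cdkn1a, which encodes a cyclin-dependent kinase inhibitor, was at 42.7, 74.8 and 55.6 FPKM in the control vault and 17.5, 24.6 and 22.4 FPKM in the MCAGF8 vault (-1.36, SE 0.39, adjusted p = 0.326). Acta2, the smooth muscle actin gene, differed by -1.08 (adjusted p = 0.709). Both were lower in every MCAGF8 library than in any control vault library. The skeletal muscle sum was lower there too, at 16.4 to 157 against 748 to 4766 FPKM, and its part in these values was not tested.

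Against the base, 14 of the 46 pathway genes passed, 13 higher in the MCAGF8 vault and Cdkn1a lower, beside 8.39% of all genes (2.98% higher and 5.41% lower), and the median was 0.33. Without the second base library 21 passed, 16 higher and 5 lower, where 4561 of 18624 genes did, and without the first MCAGF8 library 4 passed, all higher, where 587 genes did. Of the 13 matrix partners and activators 5 rose: Thbs1 by 1.82 (adjusted p = 0.0540), Mmp2 by 0.92 (adjusted p = 0.0824), Nrros by 0.91 (adjusted p = 0.0184), Mmp14 by 0.87 (adjusted p = 0.0678) and Emilin1 by 0.72 (adjusted p = 0.0889). Thbs1 encodes thrombospondin, an activator of the latent complex, Nrros a carrier of latent TGF-beta in macrophages and microglia, and Emilin1 a matrix protein that binds the precursor. Mmp2 and Mmp14 encode matrix metalloproteinases. Thbs1 was at 38.9, 176.1 and 56.9 FPKM in the base, and the second base library again lay nearest to the MCAGF8 values of 240.7 to 293.2 FPKM.

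Of the 4 accessory receptors Eng rose by 0.90 (adjusted p = 0.0349), beside the higher endothelium sum. Of the 12 Smads and regulators Smad3, which encodes a transducer of TGF-beta signals, rose by 1.20 (SE 0.23, adjusted p = 0.0178), from 25.2, 36.0 and 34.3 FPKM in the base to 77.9, 90.5 and 56.1 FPKM. The control vault, at 50.8, 57.2 and 67.7 FPKM, overlapped the MCAGF8 vault.

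Of the 19 response genes 6 rose against the base: Col1a1 by 1.82 (adjusted p = 0.0188), Fn1 by 1.49 (adjusted p = 0.0616), Col3a1 by 1.36 (adjusted p = 0.0260), Pmepa1 by 1.03 (adjusted p = 0.0175), Snai2 by 0.86 (adjusted p = 0.0219) and Snai1 by 0.83 (adjusted p = 0.0392). Col1a1, Col3a1 and Fn1 encode fibrillar collagens and fibronectin, and Col1a1 also stands in the list of tendon markers, as does the response gene Scx. Snai1 and Snai2 encode transcription factors of mesenchymal cells, and Pmepa1 a protein that restrains TGF-beta signalling. Cdkn1a fell by 1.86 (adjusted p = 0.0272), from 117.4, 39.6 and 109.5 FPKM in the base, where the second library lay nearest the MCAGF8 vault. The skeletal muscle sum was 10120, 1434 and 4136 FPKM in the same base libraries and 16.4 to 157 FPKM in the MCAGF8 vault. Its part in the Cdkn1a values was not tested. The second base library also lay nearest in Fn1, at 212.1, 612.8 and 259.8 FPKM in the base against 685.4 to 1110 FPKM in the MCAGF8 vault. The median of the response genes was 0.10, with 11 above and 8 below 0.

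Between the control tissues 4 of 46 passed, beside 3.06% of all genes (1.21% lower), and all 4 were lower in the base: Col1a1 (-2.30, adjusted p = 0.0160), Col3a1 (-1.12, adjusted p = 0.0969), Pmepa1 (-0.98, adjusted p = 0.0467) and Nrros (-0.72, adjusted p = 0.0860). The median of the 46 was -0.19. Without the second base library 11 passed, 10 lower and 1 higher, where 1335 of 18624 genes did. In the same comparison 5 of 8 tendon markers (Col1a1 among them) were lower in the base without overlap. So were 4 of 8 macrophage, 4 of 8 erythroid, 3 of 8 dermis and 3 of 8 bone markers, while 5 of 7 neuron and 4 of 8 epidermis markers were higher. The macrophage sum was 129.0 to 301 FPKM in the base and 251 to 321 FPKM in the control vault, and the part of these markers in the pathway values was not tested. Where no gene of a list passed, the lowest p were those of Smad3 (-0.87, adjusted p = 0.106) and the corepressor gene Ski (-0.44, adjusted p = 0.466), and of Cd109 (-1.05, adjusted p = 0.119) and Acvrl1 (-0.33, adjusted p = 0.480), which encode a co-receptor that binds TGF-beta and a type I receptor of endothelium. All 4 were lower in the base without overlap.

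**Figure D5:**
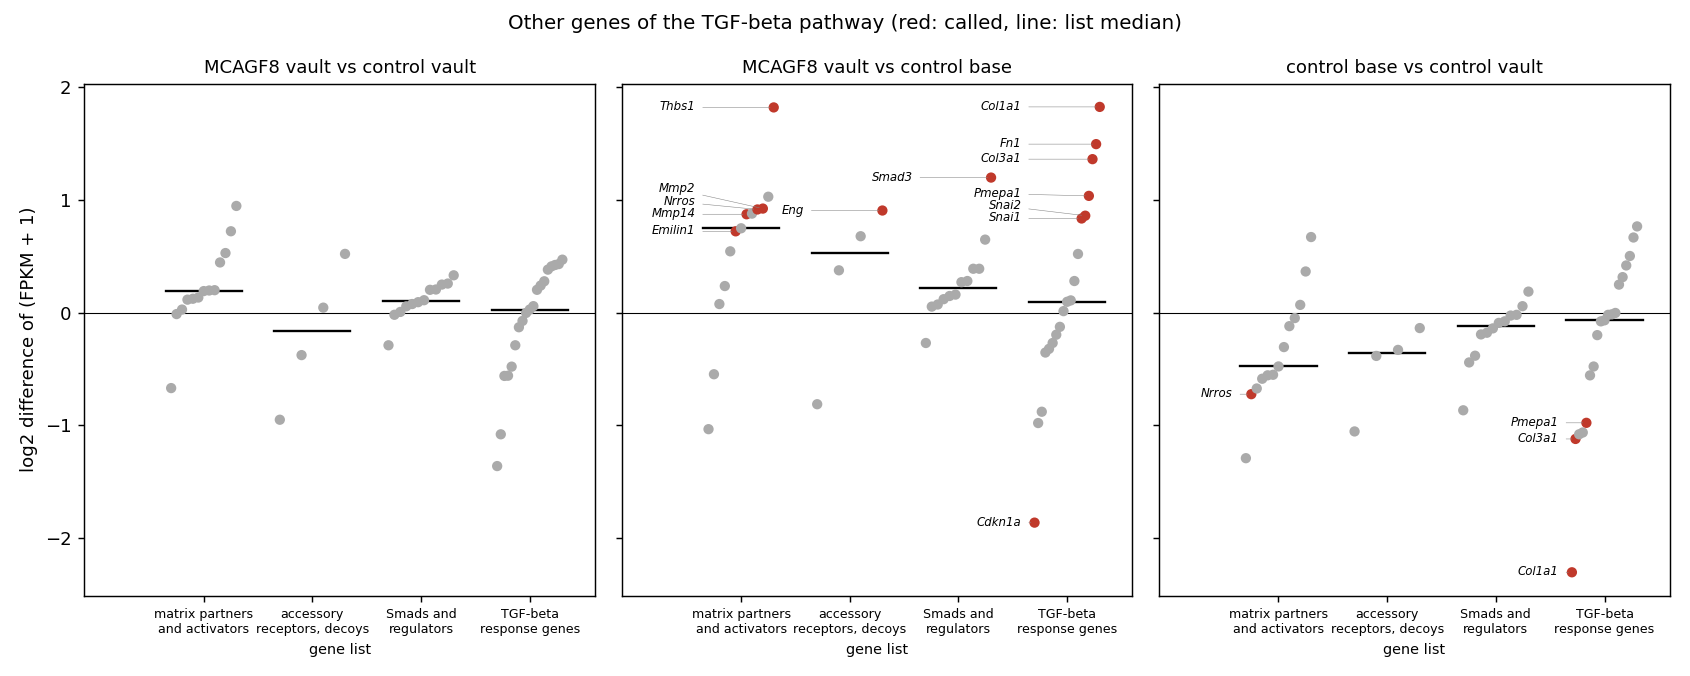
Log2 difference of (FPKM + 1) for the other pathway genes in 4 lists and 3 comparisons, with points for genes, red where the test was passed, and lines for list medians. In the vault comparison no point is red, against the base 13 red points lie above 0 and Cdkn1a lies below at -1.86, and between the control tissues the 4 red points lie below 0.

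For the 3 members that passed a test, the genes with the most similar pattern were sought over the 9 libraries, as the root mean square distance between centred log2 values among 12933 candidates. The nearest to Tgfbr2 were Marcks, at a distance of 0.0818, the response gene Snai1, at 0.0925, and Unc93b1, at 0.1003, where the SD of Tgfbr2 itself was 0.417. The nearest to Tgfbr3 were Cblb, Parp3 and Prickle2, at 0.124, 0.141 and 0.157. Ltbp2 had no neighbour that close: A230050P20Rik, St8sia2 and Wnt5a lay at 0.316, 0.319 and 0.345 against an SD of 0.701. Wnt5a had mean levels of 29.5 FPKM in the control vault, 79.7 FPKM in the MCAGF8 vault and 30.9 FPKM in the base. The libraries share their tissue make-up, so the distances are descriptions only.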

How the data were processed

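RNA of 9 pooled libraries, 3 per group, was sequenced by the authors as stranded single-end mRNA libraries, mapped with gSNAP and quantified with Cufflinks. Program versions, genome build, annotation and the use of strand in counting were not given in the sources used here. Values deposited by the authors are FPKM, 1 row per Ensembl identifier. The table holds no read counts, so depth is unknown, no counting interval is given, and the SD of 3 pools describes precision. Summed FPKM ranged from 793249 to 1315982 per library, and 16006 to 17281 genes reached 1 FPKM.

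From the FPKM, 63 rows that repeated an identifier were summed, and 9 genes with the placeholder 999999999 (17 cells) were left out. Symbols and coordinates came from GENCODE M21 (GRCm38), which matched 42384 of the 43548 identifiers, and upstream windows from RefSeq (GRCm38.p6). The authors' build is unknown, so coordinates rest on the gene identifier.

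Genes with a mean of at least 0.5 FPKM were fitted on log2(FPKM + 1) with limma 3.58.1 in R 4.3.3, with 1 mean per group over all 9 libraries and eBayes with a trend. The authors used ANOVA in R. Tests were two-sided, and adjusted p-values (Benjamini-Hochberg) run over all 18714 genes. Differences on this scale understate changes of genes at low levels. Ratios are of mean FPKM. A gene passed at an unadjusted p under 0.05 and an adjusted p under 0.1. The fit was tested on simulated data in which a gene had the same spread in every group. In the real data, correlations within a group were 0.904 to 0.9465 in the base and 0.9702 to 0.9735 in the control vault. The simulation therefore does not show how the fit does with unequal spread.

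Groups were taken from the sample titles. Members, pathway lists and marker lists were chosen with earlier results of these data known, and the lists get no test of their own. All 10 members are named, and of a pathway list the genes that passed or, where none did, the 2 with the lowest p. Values of some genes are not reported here. Of the 8 neuron markers Tubb3 was not matched. The alternatives, described in the closing section, were 10 other settings and each of the 9 libraries left out. The setting with the unadjusted p alone repeats the main fit under a looser threshold, so no call could be lost there.

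Python 3.11.15 with numpy 2.4.6, pandas 2.3.3 and matplotlib 3.10.9 served for tables and plots.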

Additional observations from a re-analysis of the deposited data

How the results depend on the processing

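Depth is unknown, and with 3 pools a group the tests rest on few values. Of the member differences under the 19 alternatives, 533 kept their direction and side of the threshold, 11 passed newly, 10 no longer passed and 16 changed sign. Unless stated, the cause of a change was not tested.

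For the MCAGF8 against the control vault, 113 genes passed, and 191 did with a pseudocount of 0.1, 66 without a filter, 71 with a mean of at least 5 FPKM, 264 with only the 2 groups fitted, 0 without moderation and 1186 at an unadjusted p under 0.05. Against the base 1571 passed, and 834, 904, 869 and 3675 did with the filter at 5 FPKM, with 2 groups, without moderation and unadjusted. Between the control tissues 573 passed, and 291, 139, 257 and 2396 did under the same settings. With 1 library left out these counts were 11 to 273, 587 to 4561 and 130 to 1335, the highest of each being without the second base library.

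Of the members, the 1 that passed between the vault groups became 0 without moderation, 3 unadjusted and 0 to 1 with a library left out. The 3 against the base became 5 unadjusted and 2 to 6 with a library left out, the 6 being without the second base library. The 0 between control tissues became 1 after quantile normalization and 1 unadjusted. Of the pathway genes, the 14 against the base became 9 without a filter, 7 with 2 groups, 8 without moderation, 22 unadjusted and 4 to 21 with a library left out (9 without the first base or the second MCAGF8 library, 8 without the third MCAGF8 library). Over all genes, 1571 passed in the main fit and 1423 without a filter. Without the first base, the second MCAGF8 or the third MCAGF8 library 1352, 768 and 842 of all genes passed. The 0 between the vault groups became 2 with 2 groups, 5 unadjusted and 0 to 3, and the 4 between control tissues 1, 14 and 1 to 11, and 8 with the trend on exon length removed, where 847 of all genes passed.

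With the replicate number as a replicate block the counts of all genes were 19, 918 and 234 in the same order of comparisons, of members 0, 2 and 0, and of pathway genes 0, 8 and 1. Ltbp2 then had an adjusted p of 0.150 between the vault groups, and Tgfbr3 of 0.124 against the base. The numbers are not known to pair pools: of 9 same-numbered pairs the correlations of deviations ran from -0.55 to 0.37, and 2 exceeded 0.1.

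Quantile normalization turned the split against the base from 558 higher and 1013 lower to 1153 and 810, and between control tissues from 347 and 226 to 236 and 390. Rescaling to 1 sum gave 768 and 817 against the base and moved the median of all genes from -0.01 to 0.13 between the vault groups, from -0.07 to 0.11 against the base and from 0.07 to 0.03 between control tissues.

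Sign changes were limited to small differences. Ltbp1 between control tissues went from 0.01 to -0.0163 after quantile normalization, -0.0269 after rescaling to 1 sum and -0.11 to 0.11 with a library left out. Tgfbr1 against the base went from 0.03 to -0.0567 with the exon length trend removed and -0.15 to 0.30 with a library left out, and between the vault groups from -0.13 to 0.0394 after rescaling and -0.33 to 0.13. With a library left out the control tissues differed by -0.43 to 0.0215 in Tgfbr1, -0.38 to 0.0287 in Ltbp3 and -0.22 to 0.38 in Tgfb2, and Tgfb1 against the base by -0.14 to 0.52.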
